A study of Saccharomyces cerevisiae with 151 samples.

Results

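The genes described here are 24 yeast genes that the array annotation knows only by a systematic name and whose level moved in wild type after 3-aminotriazole (3AT). They were taken from 449 such unnamed genes, among 5656 genes measured by a probe set of 1 gene. A gene was taken when the highest and the lowest of its 8 wild-type time means differed by at least 1.5 on log2(signal + 16) and its highest mean lay above a signal of 100. The genes were thus chosen by their wild-type signals, which are given below as a description with no test. By this rule 5.35% of unnamed and 6.15% of named genes (320 of 5207) were taken.

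The study followed Saccharomyces cerevisiae on 151 Affymetrix arrays before and after 100 mM 3AT. This drug is an inhibitor of His3, an enzyme of histidine synthesis. HIS3 is in part deleted in all these strains, and whether 3AT acted through His3 here was not tested. All strains have the background of BY4741, a haploid laboratory strain in which HIS3 (in part), LEU2, MET15 and URA3 are deleted, and grew at 28 °C in synthetic complete medium. Wild type and the single deletions of GCN4, LEU3 and GAT1 were sampled at 0, 10, 20, 30, 45, 60, 90 and 120 min.

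The double deletions gat1gcn4, gcn4leu3 and gat1leu3 and the single deletion met31 were sampled at the times from 0 to 60 min. There were 3 arrays in 45 strain and time groups and 2 in 5, whereas met31 had a single array at each of its 6 times and enters no test. The 0 min samples of every strain were untreated. Gcn4 is the activator of amino acid biosynthesis genes, Leu3 controls the branched-chain amino acid genes, Gat1 is a GATA factor of nitrogen control, and Met31 acts on sulfur genes. Whether replicates were separate cultures is not in the labels, and a p-value here therefore reflects the spread among arrays, which may be technical.

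Genes without a standard name are mostly those whose product has not been worked out in the laboratory, and some are short open reading frames whose coding status is uncertain. Several of the 24 do have recognisable relatives. YNL134C, YCR102C and YLR460C belong to a family of quinone oxidoreductase-like and zinc-type alcohol dehydrogenase-like proteins, and YNL134C is a reductase of aldehydes. YML131W belongs to the medium-chain dehydrogenase and reductase family. YIL165C lies beside NIT1 on the same strand, and in related yeasts the pair is 1 nitrilase gene. YGL114W is related to oligopeptide transporters, YLR152C looks like a membrane transporter, YPL264C is a putative membrane protein and YJR149W resembles nitronate monooxygenases. YOR338W is the paralog of FUN19 and YKR075C resembles the phosphatase regulator Reg1. YIL171W belongs to the hexose transporter pseudogene HXT12.

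Before these genes are described, some properties of the arrays need stating. The deposited arrays came on different scales, with a 2% trimmed mean of 499.75 in 78 arrays and of 22.38 to 104.32 in 73, and each array was brought to 500. All wild-type and gat1 arrays were among the 78, and every double deletion and met31 array was among the 73, so the strain and the deposited scale cannot be told apart for these. In gcn4 and leu3, replicates 1 and 2 were scaled and replicate 3 was not. The deleted genes were low where the labels say so, with 1 exception: GCN4 read 2289 on replicate 3 of gcn4 at 90 min, against a median of 258.7 over the 23 gcn4 arrays. In wild type, replicate 2 at 30 min stood apart, with a correlation of 0.911 with its mates over all genes and a LEU3 signal of 1.048 against 122.4 and 118.7. On that array 6 of the 24 genes lay over 1 log2 unit from the mean of the other two arrays, as did 12.8% of all genes. In gcn4, replicate 3 at 0 min had a lower correlation still, of 0.906 with its mates. GCN4 read 290.2 there against 46.3 and 35.2. That array is part of the 0 min mean from which every gcn4 change is taken.

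In wild type the largest range was that of YNL134C (3.26), followed by YCR102C (3.08), YPL264C (2.51), YLR108C (2.35), YOR338W (2.29) and YLR152C (2.29). YJR154W (2.29) and YKR075C (2.04) were the other genes with a range over 2. The remaining 16 had ranges from 1.55 (YJR149W) to 1.97 (YIL171W). The gene just inside the threshold was YJR149W, and the ones just outside were YOR302W and YNL162W-A, both at 1.48. YNL067W-B (1.56) and YOL153C (1.53) had the range but not the level, with highest means of 6.46 and 6.40 against a required 6.64. The largest departure from the 0 min mean was an early rise, at 10 to 30 min, in 9 genes and an early fall in 7. It was a late fall, at 45 to 120 min, in 6 genes and a late rise in 2.

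**Figure D1:**
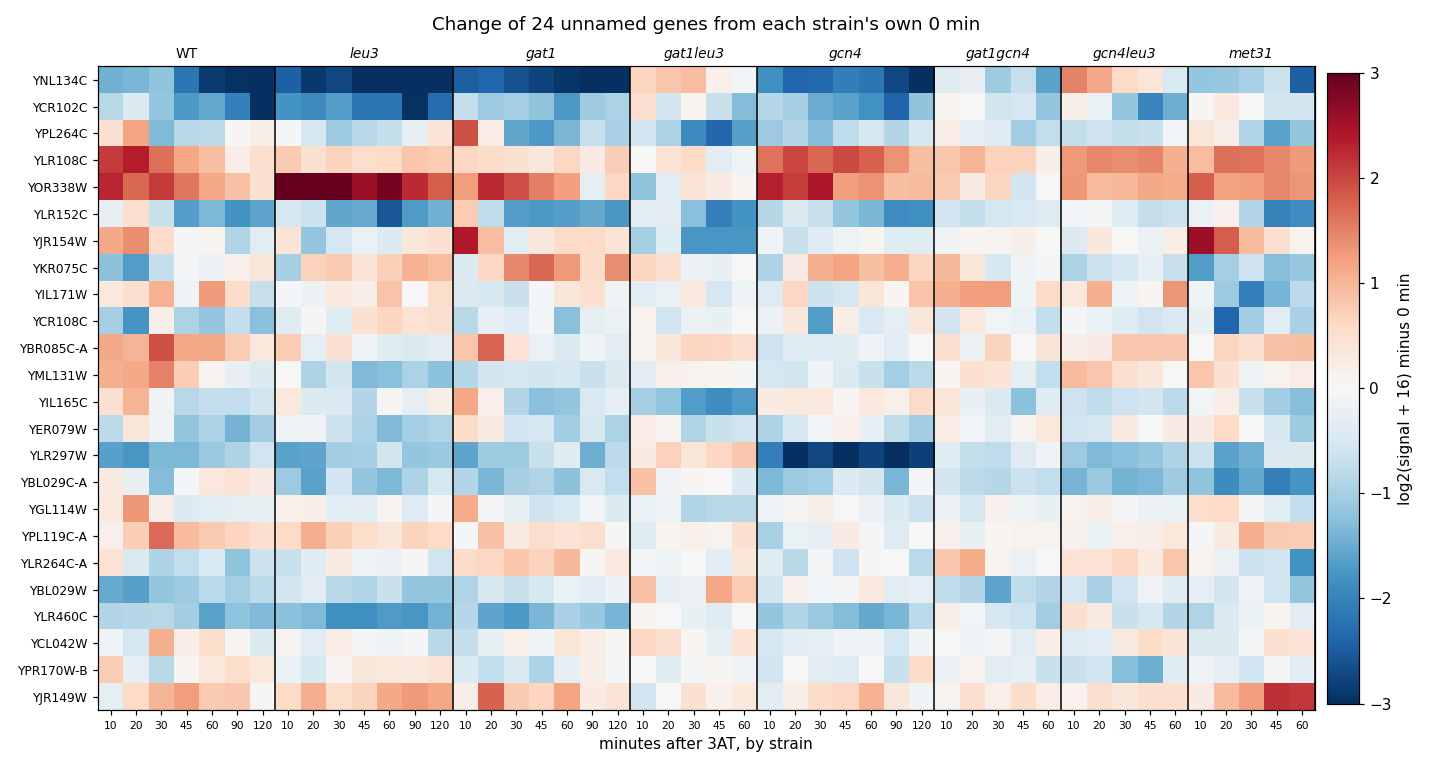
Change of each of the 24 genes (rows, ordered by wild-type range) from its strain's own 0 min on log2(signal + 16), with 1 column per time in min and 1 block per strain; red is higher, blue is lower and colours saturate at 3 in either direction. YNL134C is blue in the wild-type, leu3, gat1 and gcn4 blocks and YOR338W is red in most columns after 0 min, while the met31 columns are single arrays.

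How far the wild-type range rested on 1 array differed between the genes. For 16 genes the range stayed above 1.5 with any 1 wild-type array omitted. The other 8 were YIL171W, YCR108C, YBL029C-A, YPL119C-A, YLR264C-A, YCL042W, YPR170W-B and YJR149W. The range of YBL029C-A dropped from 1.73 to 0.66 without replicate 2 at 30 min, where its 3 arrays read 225, 8.28 and 223. YPR170W-B went from 1.58 to 0.99 without the same array, which read 89.1 against 973 and 688. YCR108C read 38.8, 907 and 36.7 there. Without that array 20 of the 24 genes met the rule, and 2 other genes did.

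YIL171W was brought in by replicate 3 at 120 min, where its arrays read 228, 383 and 6.48, and its range without that array was 1.40. YIL171W and YCR108C were also the 2 genes measured by a probe set that the array marks as shared with other sequences, so signal from near-identical copies cannot be told apart. YCL042W overlaps the glucokinase gene GLK1 on the same strand, so signal from both genes may reach its probes.

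The deletion strains gave values that the rule did not use. Within each of 6 deletion strains, limma tested whether a gene varied over its time course, with the Benjamini-Hochberg adjustment over the 5611 genes tested and a threshold of 0.05. All 24 genes passed the filter on low signals, and since the wild-type level was part of the rule they had to. In gat1, 13 of the 24 were called (10.4% of all genes), in gcn4 8 (11.2%) and in leu3 7 (4.81%). The double deletions gave 5 in gat1leu3 (5.67%), 2 in gcn4leu3 (5.31%) and 1 in gat1gcn4 (4.97%). In at least 1 of the 6 strains 16 of the 24 were called, against 28.5% of all genes and 96 of the 409 other unnamed genes. Only the 24 had to pass the cut on wild-type level. The median log2 level in wild type at 0 min was 6.96 for the other unnamed genes, 8.00 for all genes and 7.82 for the 24. In at least 2 strains 13 were called, against 9% of all genes. These counts depended on single replicates. Without replicate 1 or 2 of gcn4 its count was 4 and 2, without replicate 1 or 2 of leu3 that of leu3 was 4 and 3, and without replicate 1 or 2 of gat1 that of gat1 was 7 and 6. The gcn4 count was also 5 without replicate 1 of wild type or replicate 2 of gat1, and the leu3 count was 11 without replicate 3 of gat1gcn4. The count in gat1leu3 ranged from 1 to 6, in gcn4leu3 from 0 to 3 and in gat1gcn4 from 0 to 4 over the omissions of 1 replicate of a strain.

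YLR152C was called in 4 strains. YNL134C, YCR102C, YOR338W, YIL165C and YJR149W were called in 3 each. The 8 genes called in no strain were YIL171W, YCR108C, YML131W, YBL029C-A, YPL119C-A, YLR264C-A, YCL042W and YPR170W-B. Of the 16 genes that met the rule without any 1 wild-type array, 15 were called in at least 1 deletion strain, YML131W being the exception. Of the 8 that did not, only YJR149W was called in a deletion strain. These tallies are not independent of each other. Wild-type arrays enter the estimate of spread used in every deletion strain, so an outlying wild-type array also widens the SE there.

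**Figure D2:**
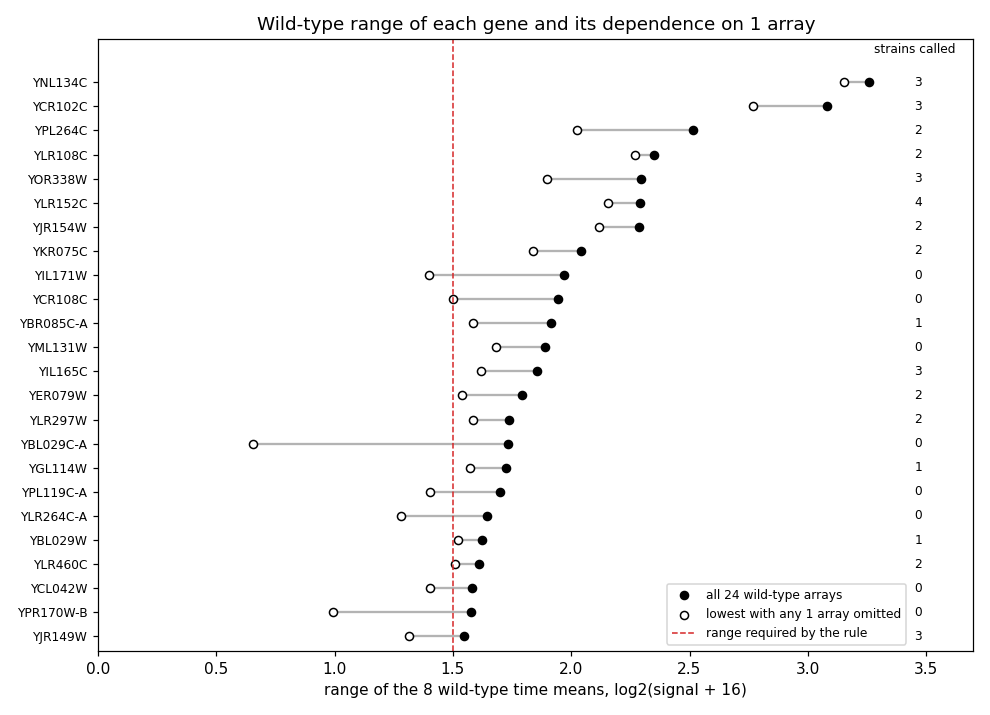
Range of the 8 wild-type time means of each gene on log2(signal + 16), with all 24 wild-type arrays (filled) and the lowest value with any 1 of them omitted (open); the dashed line is the required 1.5, and the numbers at the right count the deletion strains, of 6, whose time course was called. Of the 8 genes whose open point lies below 1.5, YJR149W alone was called in any strain. Wild-type arrays also enter the estimate of spread behind these calls.

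YNL134C, the aldehyde reductase, had the largest wild-type range. In wild type its 3 arrays read 2673, 2941 and 2099 before 3AT (2571 ± 430.2, SD, n = 3) and 239, 238 and 280.2 at 120 min. In leu3 the arrays read 4414, 5116 and 2274 before 3AT and 185, 189.6 and 490.4 at 120 min. Every 120 min array lay below every 0 min array in both strains. The arrays measure whole cultures, so fewer cells with the transcript and less of it per cell cannot be told apart.

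In gat1 YNL134C went from 2510, 2137 and 2460 to 189, 129 and 321. In gcn4 it went from 3906, 4807 and 1428 to 281, 312 and 95.9. The groups did not overlap in either strain. By limma the fall from 0 to 120 min was -3.76 ± 0.52 (SE) in leu3 (adjusted p = 1.82e-07), -3.47 ± 0.52 in gat1 (adjusted p = 5.77e-06) and -3.76 ± 0.52 in gcn4 (adjusted p = 1.74e-07), with 3 of 3 arrays lower in each. The gene fell with and without GCN4.

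The double deletions were followed to 60 min. In gat1leu3 its arrays read 337.5, 539.8 and 696 before 3AT, below all the 0 min arrays of wild type and the 3 single deletions, and 464.5, 495 and 464.5 at 60 min. These groups overlapped. In gcn4leu3 the gene read 710.2, 1398 and 1130 before 3AT and 2797, 1585 and 5693 at 10 min, with every 10 min array above every 0 min array, and 486, 1054 and 842 at 60 min. In gat1gcn4 replicate 1 went from 4876 to 1170 and replicate 3 from 961.5 to 577 by 60 min. The time course of YNL134C was called in none of the double deletions, and no test set a double against a single deletion.

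YCR102C, a relative of YNL134C, went from 320.3, 275 and 182 before 3AT to 4.87, 58.7 and 4.59 at 120 min in wild type. Of the 120 min values, 4.87 and 4.59 are under the floor of an array and 58.7 is above it. The floor is the 20th percentile of an array's probe sets, which ran from 13.01 to 31.45. In leu3 YCR102C read 324, 276 and 227 before 3AT and 24.4, 45.7 and 64.9 at 120 min, with no overlap. The fall by limma was -2.30 ± 0.57 (SE, adjusted p = 0.0163, n = 3 a group), and the call was lost without replicate 1 or 2 of leu3 (adjusted p = 0.280 and 0.167). In gcn4 the arrays at 120 min read 56.1, 173.7 and 59.3 against 351, 226 and 127 before 3AT, and these groups overlapped. The limma F-test of the time course of YCR102C was called in gcn4 (adjusted p = 0.0482), leu3 (adjusted p = 0.00857) and gcn4leu3 (adjusted p = 0.0179).

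Over strains, YCR102C and YNL134C were lower at 60 min in both classes of deletion strain. The strains that keep GCN4 are leu3, gat1 and gat1leu3, and those that lack it are gcn4, gat1gcn4 and gcn4leu3; each comparison averages the change from every strain's own 0 min. With GCN4, YNL134C had a lowest, median and highest signal of 337.5, 2274 and 5116 before 3AT (n = 9 arrays) and of 233, 309 and 514.5 at 60 min (n = 9). The ranges overlapped through gat1leu3 alone. The limma change was -2.16 ± 0.30 (SE, adjusted p = 2.58e-08). Without GCN4 it had 710.2, 1413 and 4876 before 3AT (n = 8) and 482.5, 709 and 1170 at 60 min (n = 8), a change of -1.41 ± 0.32 by limma (adjusted p = 0.00147).

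For YCR102C the changes at 60 min were -1.74 ± 0.33 with GCN4 (adjusted p = 5.45e-05) and -1.49 ± 0.35 without it (adjusted p = 0.00241) by limma. Its median signal went from 142.3 to 20.8 with GCN4 and from 179.7 to 44.4 without it. Neither gene was called for the difference between the classes at 60 min. In the double deletions lacking GCN4, taken alone, YNL134C changed by -1.03 at 60 min (adjusted p = 0.0919). YCR102C was not called at 60 min in gat1leu3 alone (-1.30, adjusted p = 0.162) or in gcn4 alone (-1.83, adjusted p = 0.153). In the double deletion gat1leu3 taken alone the change of YNL134C was 0.83 at 20 min and -0.08 at 60 min.

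The other family member, YLR460C, had lower signals. Its wild-type arrays read 118, 141 and 105 before 3AT and 23.0, 23.8 and 41.7 at 60 min, with no overlap. It was lower at 60 min by limma in strains with GCN4 (-0.90 ± 0.24, SE, adjusted p = 0.00770) and in strains without it (-1.15 ± 0.26, adjusted p = 0.00119). The call with GCN4 was lost without replicate 1 of gat1 (adjusted p = 0.0556) or of leu3 (adjusted p = 0.0575), and in gat1leu3 alone the change was -0.01. In gcn4 alone it was -1.53 (adjusted p = 0.0702).

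On replicate 3 of gcn4leu3 at 10 min all 3 relatives were far above their mates. YCR102C read 1150 there against 101 and 42.9. YLR460C read 633 against 55.6 and 42.8. YNL134C read 5693 against 2797 and 1585.

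YML131W, from the medium-chain dehydrogenase and reductase family, moved the other way in wild type, from 86.6, 87.6 and 67.2 before 3AT to 264, 342 and 177 at 30 min, without overlap. In no deletion strain was its time course called. In gcn4, leu3 and gat1gcn4 its replicate 3 was low before 3AT: 43.0 against 174 and 214.5 in gcn4, 53.7 against 230 and 203 in leu3, and 63.6 against 472 in gat1gcn4. Replicate 3 of gcn4 and leu3 is also the replicate deposited on another scale, and the part of that in these values was not tested.

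**Figure D3:**
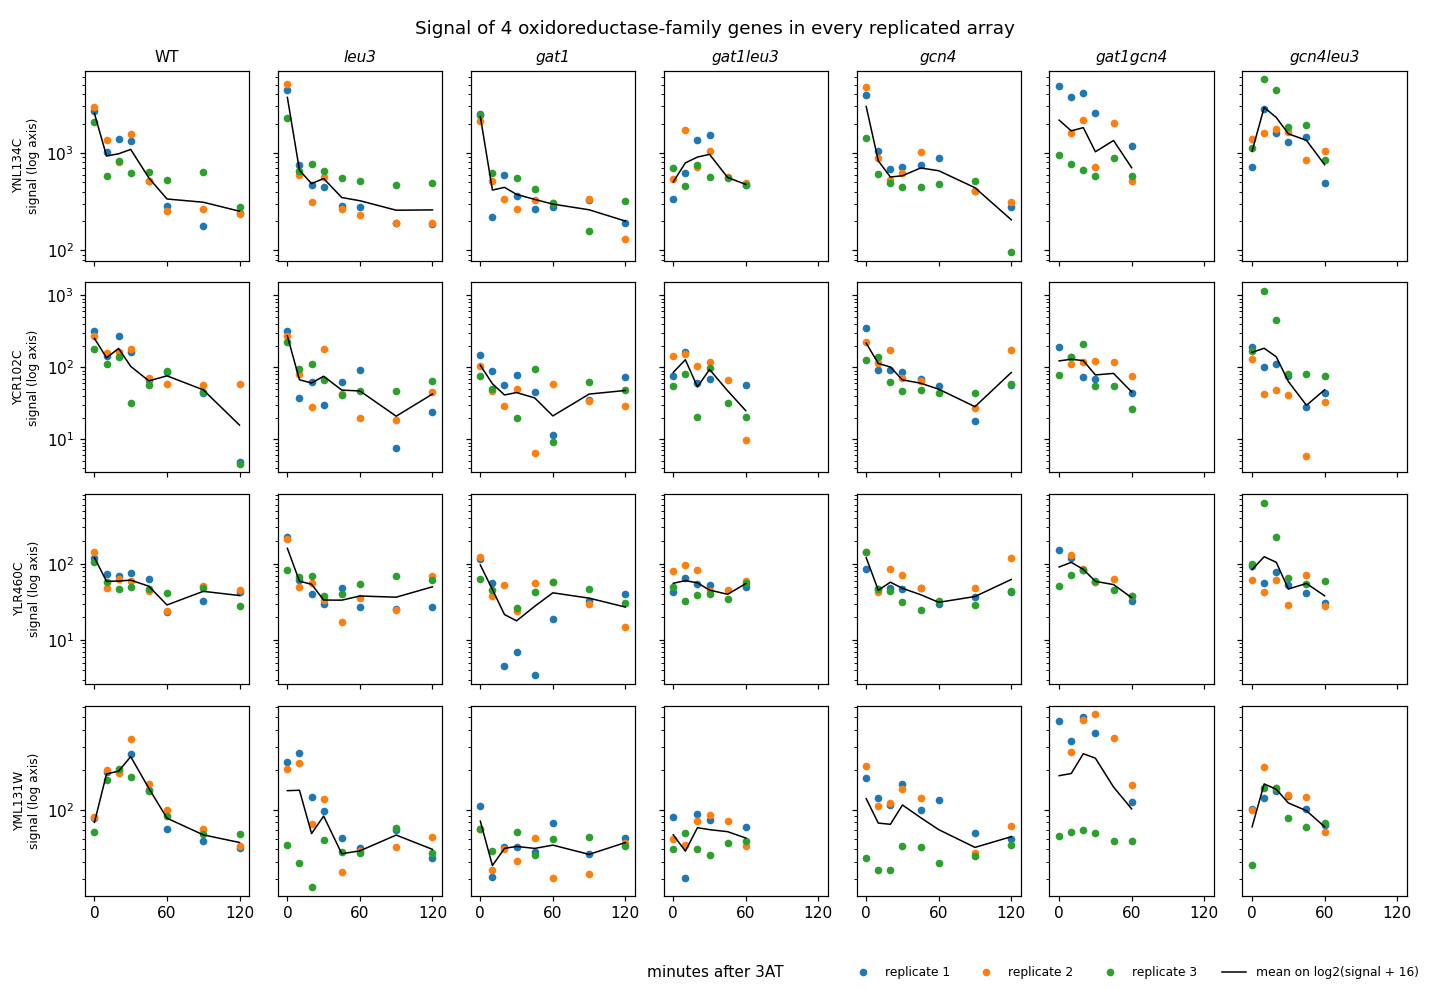
Signal (log axis) against minutes after 3AT for YNL134C, YCR102C, YLR460C and YML131W in each replicated strain; each point is 1 array, coloured by replicate, and the line is the mean on log2(signal + 16). YNL134C ran from between 1428 and 5116 before 3AT to between 95.9 and 490.4 at 120 min in the leu3, gat1 and gcn4 panels, and started at 337.5 to 696 in gat1leu3.

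Across the 42 group means of the 6 deletion strains, the named genes most like YNL134C were GRE2, an aldehyde and ketone reductase induced by stress (Pearson r = 0.84), YCH1 (0.79) and IAT4 (0.79). For YCR102C they were HSP31, a chaperone and glyoxalase (0.83), GRE2 (0.82) and FMP48 (0.78). YLR460C was most like GRE2 (0.81) too, and so was YML131W (0.81). YCR102C and YLR460C had an r of 0.80 with each other. These group means share arrays, and the best match of the 24 genes (median r of 0.778) was close to that of all genes (0.762), so the values are a description.

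Several genes had their wild-type maximum at 20 min and lower values after it. Of these, YIL165C, YPL264C, YJR154W, YGL114W and YLR152C are described together here. YLR108C and YER079W, described below, had theirs at 20 min too. Neither was called at 10 min in gat1 (changes of 0.61 and 0.55), and YLR108C rose at 10 min in gcn4 (1.62 ± 0.40, SE, limma adjusted p = 0.00369). YIL165C, from the nitrilase pair, read 792, 742.5 and 609.8 before 3AT, 2011, 1225 and 1231 at 20 min and 435, 381 and 356 at 45 min in wild type. The 3 groups did not overlap. YPL264C read 166, 144 and 263 before 3AT and 283, 519.7 and 584 at 20 min, and at 30 min 185, 2.56 and 122.4, of which the middle value is from the array that stood apart.

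YJR154W, of unknown function, read 63.2, 41.9 and 52.0 before 3AT and 113, 178 and 208 at 20 min. The transporter relative YGL114W went from 393, 334 and 305 to 1079, 725.5 and 839.6 over the same times. YLR152C went from 510.4, 430.3 and 456 to 731, 601 and 665, and then to 155, 73.6 and 158 at 90 min. All 20 min arrays of these genes lay above all their 0 min arrays. The genes were chosen and grouped by these same wild-type arrays, so this is a description alone.

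In gat1 YIL165C, YPL264C, YJR154W, YGL114W and YLR152C had their highest mean at 10 min, which was seen in the values before it was tested. Wild-type YJR154W had a lowest, median and highest signal of 97.9, 145 and 166 at 10 min, above all its 0 min arrays. Those of YIL165C were 789, 979 and 1205 and those of YPL264C 195, 290 and 308. For YGL114W they were 263, 524 and 533 and for YLR152C 306, 394 and 476. These 10 min values overlapped with 0 min, except for YJR154W. No test set gat1 against wild type. In gat1 YPL264C read 619, 172 and 260.1 before 3AT and 2117, 1653 and 474 at 10 min. YIL165C read 575, 699 and 481 and then 2292, 1537 and 641. Replicate 3 was the lowest at 10 min for both genes and lay within the 0 min values, while replicates 1 and 2 were above them.

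YJR154W in gat1 read 69.4, 19.7 and 47.4 before 3AT and 310.4, 449.5 and 177 at 10 min, with no overlap. YGL114W read 527.5, 263 and 454 and then 1195, 1061 and 528, the lowest of which was just above the highest 0 min array. YLR152C read 624, 364 and 572.5 and then 1267, 1189 and 431. Here too replicate 3 fell within the 0 min values.

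By limma, 6 of the 24 genes were called at 10 min in gat1 (1.82% of all genes), of which 4 rose (1.25%) and 2 fell (0.57%). Those that rose were YJR154W (2.41 ± 0.53, SE, adjusted p = 0.00344), YPL264C (1.91 ± 0.49, adjusted p = 0.0170), YIL165C (1.16 ± 0.30, adjusted p = 0.0194) and YGL114W (1.11 ± 0.31, adjusted p = 0.0380). Those that fell were YNL134C (-2.46 ± 0.52, adjusted p = 0.00174) and YLR297W (-1.57 ± 0.41, adjusted p = 0.0189). YLR152C was not called. The count was 0 without replicate 1 of gat1 and 1 without replicate 2, and the call of YLR297W was also lost without replicate 3 (adjusted p = 0.346).

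In gcn4 the values of YIL165C, YPL264C, YJR154W, YGL114W and YLR152C at 10 min overlapped with those before 3AT or lay below them. YPL264C read 254, 283 and 121.5 before 3AT, 86.4, 112 and 72.5 at 10 min and 136, 103 and 83.8 at 20 min. All its 10 min arrays were below all its 0 min arrays. YIL165C read 180, 359 and 303 before 3AT, 355, 243 and 394 at 10 min and 315, 337.5 and 352 at 20 min in gcn4, and these groups overlapped. Its highest gcn4 array at any time was 501, below every wild-type array at 20 min.

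In leu3, which keeps GCN4, an early peak was not called either. YIL165C read 516, 337 and 493.6 before 3AT, 479.9, 408.5 and 866 at 10 min and 279, 329.8 and 389 at 20 min. YPL264C read 309, 161 and 199 and then, at 10 min, 83.2, 196 and 509.9. Replicate 3 was the highest at 10 min for both genes, and the groups overlapped.

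The change at 10 min differed between gcn4 and gat1 for YPL264C by -2.99 ± 0.69 (SE, limma adjusted p = 0.0194, n = 3 in each of the 4 groups), the only call among the 24 genes (0.446% of all genes). The call was lost without replicate 1 or 2 of either strain, with adjusted p-values from 0.126 to 0.556. For YJR154W the difference was -2.51 ± 0.75 (adjusted p = 0.116), for YGL114W -1.24 ± 0.44 (adjusted p = 0.214) and for YIL165C -0.91 ± 0.43 (adjusted p = 0.450), none of which passed.

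**Figure D4:**
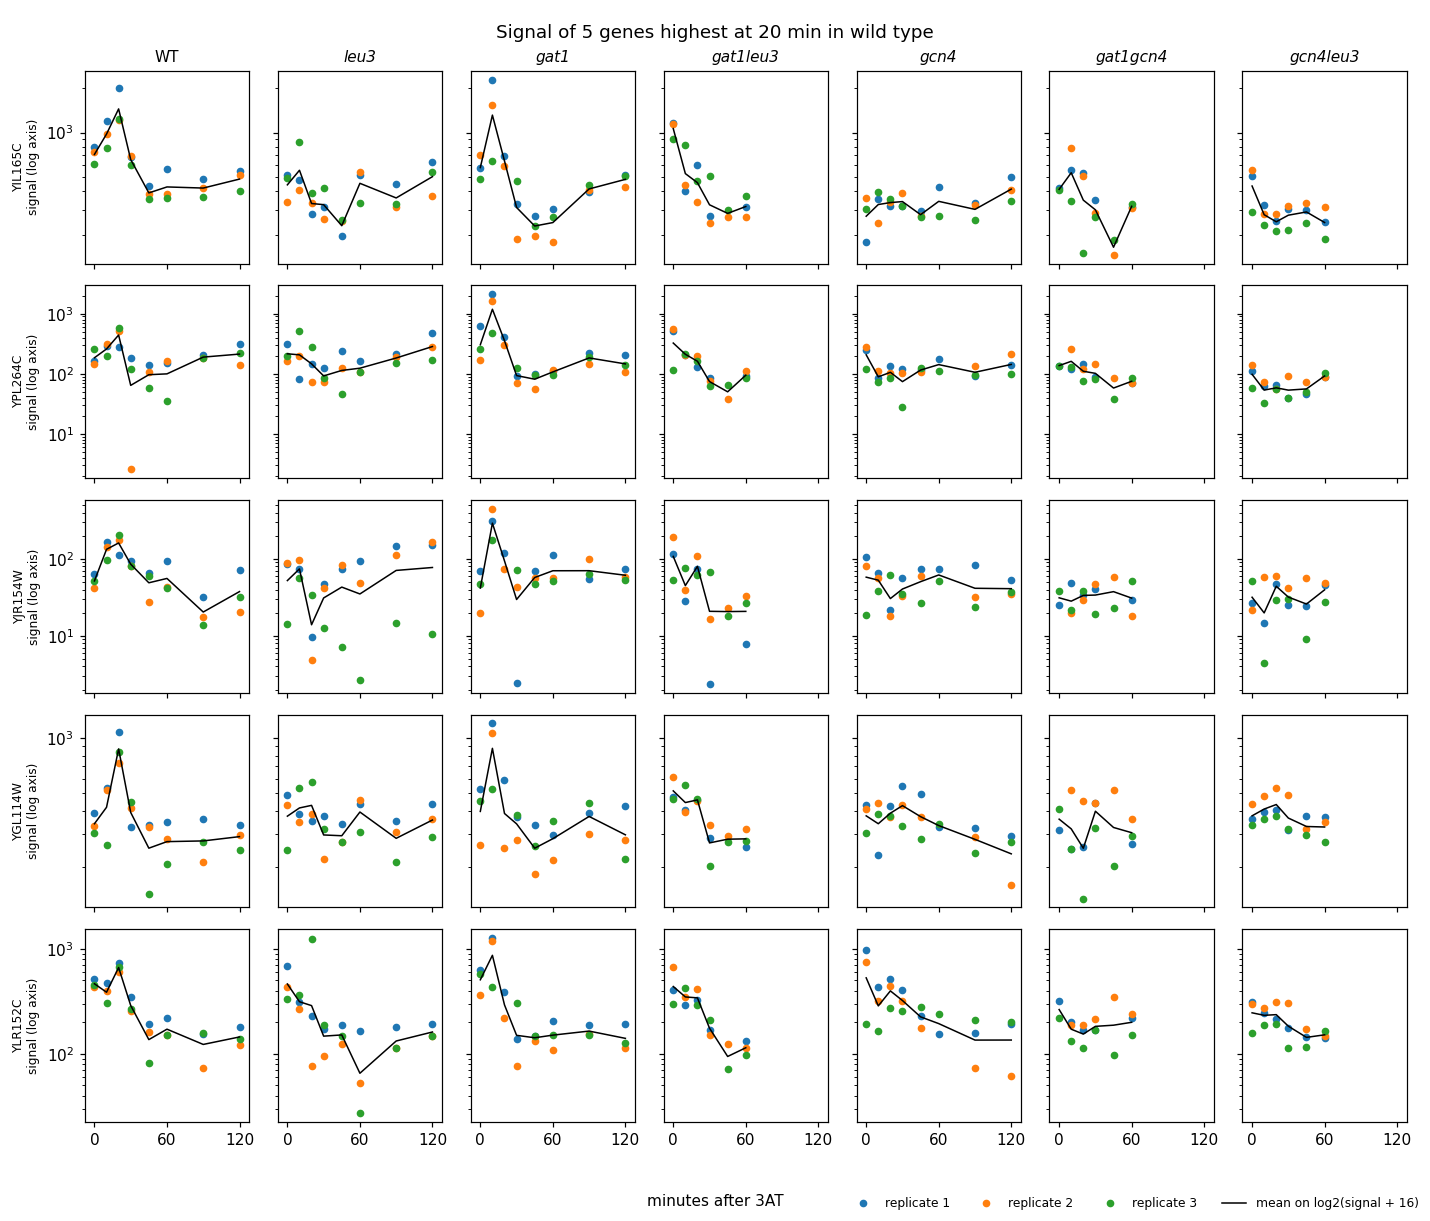
Signal (log axis) against minutes after 3AT for YIL165C, YPL264C, YJR154W, YGL114W and YLR152C in each replicated strain; each point is 1 array, coloured by replicate, and the line is the mean on log2(signal + 16). In wild type the lines peak at 20 min and in gat1 at 10 min, where YIL165C read 2292, 1537 and 641.

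Before 3AT, YIL165C and YPL264C were lower in strains without GCN4. YIL165C had a lowest, median and highest 0 min signal of 180, 382 and 553 without GCN4 (n = 8) and of 337, 575 and 1154 with it (n = 9). The ranges overlapped. The difference was -0.81 ± 0.18 (SE, limma adjusted p = 7.70e-04). For YPL264C the signals were 58.2, 137.1 and 283 without and 115, 260.1 and 619 with GCN4, and the difference was -0.90 ± 0.29 (limma adjusted p = 0.0288). With only the scaled arrays the YPL264C difference was 0.03, and with the single deletions alone it was -0.29, neither of which passed. The YPL264C call was also lost in 8 omissions of a single replicate (adjusted p up to 0.108).

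By 60 min YIL165C was lower over the strains with GCN4, from a median of 575 to 314 (change -0.95 ± 0.17, SE, limma adjusted p = 2.66e-05, n = 9 and 9). The change was -1.71 in gat1leu3 alone, -0.58 in leu3 and gat1 alone (adjusted p = 0.1003) and -0.43 with the scaled arrays alone (adjusted p = 0.268). Without GCN4 its median went from 382 to 309 (n = 8 and 8), which was not called. YPL264C changed by -1.24 ± 0.28 with GCN4 (limma adjusted p = 0.00104), and by -1.05 in leu3 and gat1 alone (adjusted p = 0.0545). In gat1leu3, YIL165C was highest before 3AT, at 1154, 1151 and 906, and read 402, 442 and 818 at 10 min, with no overlap.

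The neighbour NIT1 was the named gene most like YIL165C (r = 0.90), ahead of STR2, a sulfur amino acid enzyme (0.88), and ARG2, the first enzyme of the arginine route (0.83). Its 0 min median was 664 with and 309.6 without GCN4. YPL264C was most like NIT1 (0.87), PKP2 (0.86) and STR2 (0.85), and YIL165C and YPL264C had an r of 0.845 with each other. YJR154W was most like STB4 (0.77), GEM1 (0.76) and NIT1 (0.76).

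YLR152C, the transporter-like gene, was called in all 3 single deletions and in gat1leu3. Its arrays went from 679, 432 and 336 before 3AT to 191, 149 and 147 at 120 min in leu3. In gcn4 they went from 981, 757 and 194 to 192, 61.4 and 199. In gat1 they went from 624, 364 and 572.5 to 191, 113 and 127. The groups overlapped in gcn4, through replicate 3, and not in leu3 and gat1.

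The limma change of YLR152C from 0 to 120 min was -1.85 ± 0.45 (SE) in gcn4 (adjusted p = 0.00508) and -1.74 ± 0.45 in gat1 (adjusted p = 0.0285), with 2 and 3 of 3 arrays below all 0 min arrays. The gat1 call was lost without any 1 replicate of gat1 (adjusted p from 0.188 to 0.329) and without the wild-type arrays (adjusted p = 0.0598), and the gcn4 call without replicate 1 or 2 of gcn4 (adjusted p = 0.178 and 0.378). At 60 min in strains with GCN4 its median went from 432 to 114 (n = 9 and 9), a change of -2.004 ± 0.26 by limma (adjusted p = 4.29e-09). Its closest named genes were SKN1 (0.72), SFK1 (0.69) and ATR1 (0.67).

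YOR338W, the FUN19 paralog, peaked early in wild type, going from 85.7, 63.3 and 23.2 before 3AT to 398, 349 and 231 at 10 min and back to 77.99, 89.3 and 68.5 at 120 min. In gcn4 it went from 181, 126 and 77.8 to 901, 636 and 551 at 10 min. In leu3 it went from 18.4, 10.0 and 161 to 632, 382.5 and 335. In gat1 it went from 151, 146 and 363 to 928 and 1117 at 20 min, where 2 arrays were measured. In each of these strains the arrays at the early time lay above all its 0 min arrays.

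In gat1leu3, by contrast, YOR338W read 334, 252 and 213 before 3AT and 71.3, 70.8 and 219.6 at 10 min. At 20 min with GCN4 its limma change was 1.75 ± 0.28 (SE, adjusted p = 4.91e-06), from a median of 161 (n = 9) to 512 (n = 8), but -0.34 in gat1leu3 alone. Without GCN4 it was 1.09 ± 0.28 (adjusted p = 0.00527), from a median of 227 (n = 8) to 585 (n = 9), and 0.60 in gat1gcn4 and gcn4leu3 alone (adjusted p = 0.429).

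Before 3AT, YOR338W was higher without GCN4, by 1.02 ± 0.28 (SE, limma adjusted p = 0.00772). The 0 min arrays of gat1gcn4 (647 and 631) lay above all others, and those of gcn4 overlapped with wild type. With the single deletions alone the difference was 0.35 (adjusted p = 0.832), and with the double deletions alone 0.68 (adjusted p = 0.288). At 120 min it was still higher than before 3AT in leu3, at 157, 99.5 and 330 (1.81 ± 0.47, adjusted p = 0.0239), and the call was lost without replicate 1 or 2 of leu3 (adjusted p = 0.302 and 0.320) and with a pseudocount of 64 (adjusted p = 0.146). The named genes most like YOR338W were ATC1 (0.84), LCP5 (0.84) and UTP15 (0.80), the last 2 being factors of small-subunit ribosome assembly.

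YLR108C, a gene of unknown function, went in wild type from 247, 272 and 217 before 3AT to 1400.2, 1416 and 1137 at 20 min. In gcn4 it went from 188, 142 and 105 to 640.5, 615 and 605. In gcn4leu3 it went from 165.5, 171 and 144 to 431, 550 and 418. In gat1 it went from 218, 229 and 258 to 367 and 332. The 20 min arrays lay above the 0 min arrays in all of these, and below every wild-type array at 20 min.

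Over the strains without GCN4 the limma change of YLR108C at 20 min was 1.49 ± 0.24 (SE, adjusted p = 2.93e-06), from a median of 161 (n = 8) to 605 (n = 9), and 1.003 ± 0.25 at 60 min (adjusted p = 0.00397). At 60 min it was 1.76 in gcn4 alone and 0.62 in the double deletions alone, where it was not called (adjusted p = 0.210). With GCN4 its median went from 229 (n = 9) to 329 (n = 8) at 20 min, which was not called. The difference between the classes at 20 min was not called either. The time course was called in gcn4 (adjusted p = 9.11e-04) and gcn4leu3 (adjusted p = 0.0489). The most similar named genes were CIT2, the peroxisomal citrate synthase (0.66), NCE103 (0.66) and DIP5 (0.64).

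YLR297W, also of unknown function, had its wild-type minimum at 20 min. Its wild-type arrays went from 207, 202.5 and 105 before 3AT to 41.7, 38.0 and 35.4 at 20 min. In gcn4 it started at 1354, 1269 and 363 and read 106, 105 and 55.4 at 20 min and 135, 188 and 48.2 at 120 min. All 3 of its gcn4 arrays before 3AT lay above the wild-type ones, and no later gcn4 array reached them.

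The fall of YLR297W in gcn4 from 0 to 120 min was -2.80 ± 0.41 (SE, limma adjusted p = 6.91e-07). Over the strains without GCN4 it changed by -1.71 ± 0.24 at 20 min (limma adjusted p = 2.04e-07, n = 8 and 9), and by -3.10 in gcn4, -1.315 in gcn4leu3 and -0.71 in gat1gcn4. In gat1leu3 the gene started low, at 64.8, 22.8 and 75.1, and read 124, 93.3 and 85.8 at 60 min, with no overlap. The change at 60 min without GCN4 minus that with it was -1.23 ± 0.35 (limma adjusted p = 0.0410). Strain by strain that change was -2.78 in gcn4, -0.92 in gcn4leu3 and -0.11 in gat1gcn4, against -0.55 in leu3, -0.36 in gat1 and 0.82 in gat1leu3. Its closest named genes were TOS8 (0.80), TDA6 (0.74) and HOG1 (0.74).

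YKR075C, the Reg1-like gene, went in wild type from 189, 198 and 305 before 3AT to 67.8, 63.7 and 47.6 at 20 min, and read 392, 175 and 364 at 120 min. In gat1 it read 338, 325 and 225 before 3AT and 986, 1212 and 834 at 45 min, with no overlap, a change of 1.72 ± 0.57 (SE) that did not pass in limma (adjusted p = 0.0891). The time course was called by limma in gat1 (adjusted p = 0.0234) and gcn4 (adjusted p = 0.0438). Its signal before 3AT was far higher in gcn4leu3 (1767, 1694 and 1621), gat1leu3 (1250.4, 1287 and 863) and met31 (1446) than in wild type. Over the 8 arrays without GCN4, which include those of gat1gcn4, the 0 min median of YKR075C was 899.1.

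Replicate 3 of YKR075C before 3AT was also the highest in gcn4 (364 against 218 and 186) and in leu3 (563 against 124 and 127). All of the high arrays listed singly are ones deposited on the other scale. In the double deletions and met31 scale cannot be told apart from strain. Within gcn4 and leu3 it cannot be told apart from replicate. Across the deletion strains YKR075C was most like MTH1, a regulator of glucose sensing (0.87), HXT2, a hexose transporter (0.81), and URA3 (0.75), over the same arrays. URA3 is among the genes deleted in the BY4741 background.

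**Figure D5:**
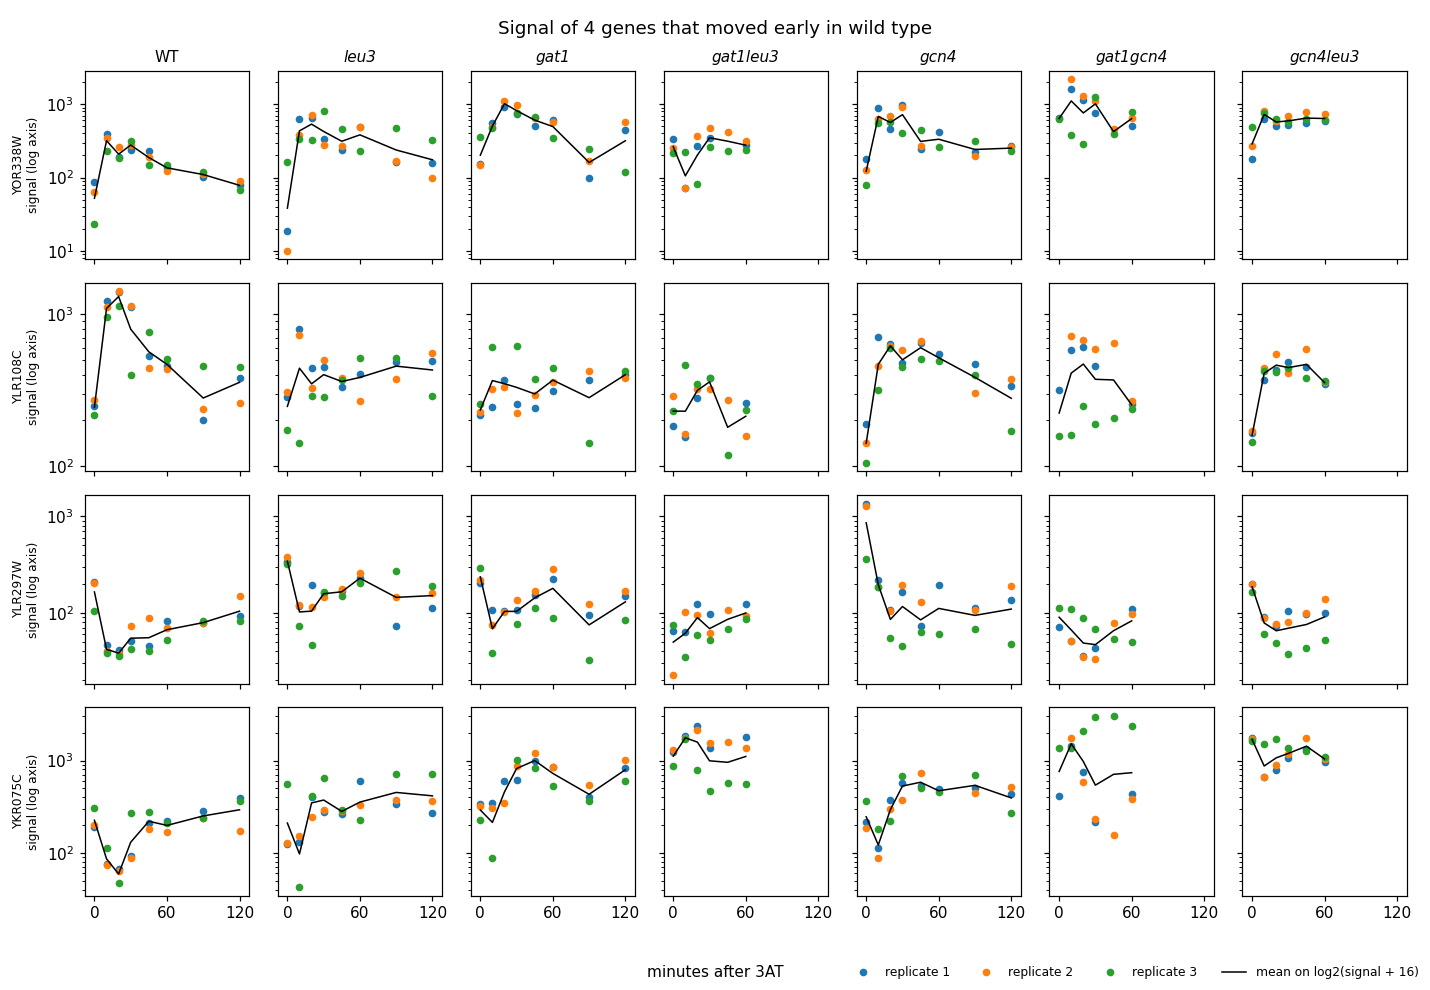
Signal (log axis) against minutes after 3AT for YOR338W, YLR108C, YLR297W and YKR075C in each replicated strain; each point is 1 array, coloured by replicate, and the line is the mean on log2(signal + 16). YLR297W began at 1354, 1269 and 363 in gcn4, against 105 to 207 in wild type.

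YJR149W, the nitronate monooxygenase-like gene next to BAT2, had its wild-type maximum late, going from 54.0, 58.9 and 77.6 before 3AT to 163, 107 and 285 at 45 min. Although its wild-type range was the smallest, it was called in 3 deletion strains. With GCN4 it had a lowest, median and highest signal of 23.4, 71.8 and 111 before 3AT (n = 9) and 101, 125 and 234 at 60 min (n = 9), a change of 0.88 ± 0.19 (SE, limma adjusted p = 4.70e-04). At 20 min the change with GCN4 was 0.94 ± 0.20 (limma adjusted p = 6.53e-04), but -0.02 in gat1leu3 alone, where the change at 60 min was 0.32 (adjusted p = 0.646). In met31 its single arrays read 67.6 before 3AT and 364 at 45 min. Its closest named genes were SHP1 (0.75), BCH1 (0.72) and MAM3 (0.66).

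YER079W, of unknown function, was lower at 60 min over the strains with GCN4. With GCN4 its lowest, median and highest signals were 171, 239 and 397 before 3AT (n = 9) and 63.9, 146 and 223.5 at 60 min (n = 9), and it changed by -0.99 ± 0.21 (SE, limma adjusted p = 5.91e-04). Without GCN4 they were 120.3, 334 and 502 (n = 8) and then 235, 279.9 and 580.2 (n = 8), which was not called. The difference between the classes was 1.10 ± 0.31 (limma adjusted p = 0.0480). It was 0.94 with the single deletions alone (adjusted p = 0.762), 0.88 with the double deletions alone (adjusted p = 0.445) and 0.45 with the scaled arrays alone (adjusted p = 0.854). In gat1leu3 alone the change was -0.60 (adjusted p = 0.376). Its closest named genes were EIS1 (0.78), GLC3, the glycogen branching enzyme (0.78), and MSC3 (0.77).

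At 60 min YER079W and YLR297W were the 2 of the 24 genes called for the difference between the classes (1.55% of all genes). YER079W was the 1 that was higher in the difference (1.34%) and YLR297W the 1 that was lower (0.214%). Both calls lie near the threshold, and omission of a single replicate lost that of YER079W in 17 omissions and that of YLR297W in 12. Neither gene was called without the wild-type arrays, which enter only the estimate of spread (adjusted p = 0.0612 and 0.0698). At 20 min none of the 24 was called for that difference by limma (0.232% of all genes), and 6 had an unadjusted p under 0.05.

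YBR085C-A, a small protein of unknown function, went in wild type from 701, 699.9 and 303 before 3AT to 3236, 2001 and 1317 at 30 min. Before 3AT it was higher without GCN4, with a lowest, median and highest signal of 577, 1930 and 2373 (n = 8) against 494, 900.1 and 1101 with it (n = 9), a difference of 0.94 ± 0.31 (SE, limma adjusted p = 0.0310). The call was lost in 8 omissions of a single replicate (adjusted p up to 0.121), with the single deletions alone (0.80, adjusted p = 0.488), with the double deletions alone (1.17, adjusted p = 0.0709) and with median centring (adjusted p = 0.0634). The named gene most like it was SPG4, a gene of stationary phase (0.85), then FMS1 (0.81) and MND2 (0.79). A list of 28 general stress genes had 19 members higher and 0 lower in the same comparison, with a median of 1.12 against 0.10 over all genes. In that comparison 5 of the 24 unnamed genes were called (11.8% of all genes), 3 higher (8.02%) and 2 lower (3.8%) without GCN4. YBL029C-A (0.85 ± 0.27, limma adjusted p = 0.0274) was the other one that was higher, and its call was lost in 7 such omissions, with the single deletions alone (0.38, adjusted p = 0.793) and with median centring (adjusted p = 0.0808). With median centring 1 gene was higher and 2 were lower. Between 2 and 5 of the 24 were called over the omissions.

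YBL029C-A, whose wild-type range rested on 1 array, was called at 20 min in both classes of deletion strain. With GCN4 its lowest, median and highest signals went from 104, 361 and 662 before 3AT (n = 9) to 96.5, 150 and 192 at 20 min (n = 8). Without GCN4 they went from 312, 694.5 and 925 (n = 8) to 126, 291 and 556 (n = 9). The limma changes were -1.03 ± 0.27 (SE, adjusted p = 0.0107) and -0.99 ± 0.27 (adjusted p = 0.00946). The first call was lost without replicate 1 or 2 of gat1 or replicate 3 of leu3, and the second without replicate 2 of gcn4 or replicate 3 of gat1gcn4 (adjusted p from 0.0527 to 0.167). In gat1leu3 alone the change was -0.10 (adjusted p = 0.992), and without GCN4 it was -1.08 in gcn4 alone (adjusted p = 0.163) and -0.95 in the double deletions alone (adjusted p = 0.109). Its closest named genes were KTD1 (0.79), SYC1 (0.79) and ATP5 (0.79).

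Counted together, 6 of the 24 genes were called at 20 min with GCN4 (5.69% of all genes), of which 2 rose (2.01%) and 4 fell (3.67%). At 60 min 10 were called (8.8%), of which 2 rose (3.35%) and 8 fell (5.45%). Without GCN4, 4 were called at 20 min (10.1%), of which 2 rose (3.62%) and 2 fell (6.43%), and 5 at 60 min (7.95%), of which 1 rose (4.12%) and 4 fell (3.83%), or 2 and 4 with median centring. Without replicate 1 of gat1 the count at 20 min with GCN4 was 3, and without replicate 3 of leu3 that at 60 min without GCN4 was 8.

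At 120 min 3 of the 24 genes were called in gcn4 (5.36% of all genes), all lower (3.64%), and 2 in gat1 (0.731%), both lower (0.446%). In leu3 4 were called (1.23%), 2 higher (0.552%) and 2 lower (0.677%). Without replicate 1 or 2 of leu3 its count was 1, and without any 1 replicate of gat1 that of gat1 was 1. The 4 in leu3 were YNL134C, YCR102C, YOR338W and YJR149W (1.16 ± 0.33, SE, limma adjusted p = 0.0465). The YJR149W call was lost in 14 of 22 omissions of a replicate (adjusted p up to 0.263), 3 of them in leu3 itself, and with the scaled arrays alone (adjusted p = 0.215). The median change of the 24 genes at 60 min was -0.15 with and -0.24 without GCN4, against -0.03 and -0.02 over all genes tested.

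Named genes of known pathways give the setting of these counts. Of 38 measured amino acid biosynthesis genes under Gcn4, 27 fell and 0 rose at 60 min with GCN4, and 8 rose and 0 fell without it. Of 23 sulfur and methionine genes 11 rose in each class, with 1 falling in strains with GCN4 and 0 in the others. Of 25 genes of the Yap1 and oxidative stress list, 3 rose and 4 fell with GCN4 and 3 rose and 3 fell without it. Of 21 iron genes 8 rose with and 6 without GCN4, and none fell. Of 22 genes under nitrogen repression, 1 rose and 5 fell with GCN4 and 7 fell without it.

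The remaining genes were small in signal or variable between arrays. YBL029W went in wild type from 106, 97.7 and 97.6 before 3AT to 18.3, 51.4 and 7.30 at 20 min, and its time course was called in gat1leu3 by limma (adjusted p = 0.0347). YPL119C-A went from 35.0, 44.2 and 33.1 to 174, 243 and 88.3 at 30 min in wild type. YCL042W read 62.7, 62.5 and 59.2 before 3AT and 168, 191 and 96.0 at 30 min, and its correlation with GLK1, which it overlaps, was 0.45 over the deletion strains. YLR264C-A read 944, 1227 and 559 before 3AT and 528, 431 and 216 at 90 min. YPL119C-A, YCL042W and YLR264C-A were called in no deletion strain.

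YIL171W was the most variable of them between replicates, with 252, 112 and 4616 at 30 min in gat1leu3 and 99.95, 1601 and 209.6 at 120 min in gcn4. It had no time course called.

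In met31, the strain with 1 array a time, 14 of the 24 genes had a range of at least 1.5 from 0 to 60 min, as did 8.91% of all genes. Single arrays give wider ranges than means of 3, so this share is set beside that of all genes in met31 alone. YJR154W read 48.1 before 3AT, 366.5 at 10 min and 209 at 20 min there. YNL134C read 555 before 3AT and 88.3 at 60 min. Among the replicated strains, 14 of the 24 reached that range over the same times in gat1, 9 in leu3 and 8 in gcn4. In the double deletions 6 did in gat1leu3, 3 in gat1gcn4 and 2 in gcn4leu3, where strain and deposited scale cannot be told apart. Among all genes the shares were 6.58%, 4.65% and 5.51% in the single deletions and 5.38%, 5.35% and 4.31% in the doubles.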

How the data were processed

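Total RNA labelled with biotin was hybridised to 151 single-colour arrays. Each deposited value is the linear intensity of a probe set, which the submitters' processing notes say came from MAS5, of a version not given in the sources used here. Each array was multiplied by 1 factor to bring its 2% trimmed mean to 500, and changes were taken on log2(signal + 16), which understates changes of low signals. Of 9335 probe sets, 6504 name 1 gene in the platform annotation, and for genes with several probe sets the one not marked as shared with the highest mean was used. A gene was tested when above its array's 20th percentile in at least 2 arrays of a group of 3, or 1 of 2, which left 5611 genes.

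Tests were made in R 4.3.3 with limma 3.58.1 (eBayes with a trend on intensity), with 145 arrays in 1 fit, 95 residual degrees of freedom and Benjamini-Hochberg adjustment over all genes. The script was tested on simulated data. Precision is limited by how many arrays there are: the median SE was 0.336 for 3 against 3 arrays. Members, lists and comparisons were chosen with earlier results of these data known, and the gat1 comparisons at 10 min after their values were seen. Values of every array are given for the 6 genes with the largest wild-type range and for up to 2 called genes in each direction of each comparison, with the 3 most similar named genes; the other genes described singly were chosen after their values were seen. Alternatives were other scalings, a pseudocount of 64, no filter, array weights, a replicate block, subsets of strains and omission of each replicate. Neighbouring genes were read from RefSeq assembly R64. Sequences were not used here.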

Additional observations from a re-analysis of the deposited data

Results flagged for a closer look

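YER079W was marked for a closer look because its change at 60 min differed between strains without and with GCN4 by a limma test of the difference itself, by 1.10 (adjusted p = 0.0480). YLR297W was marked for the same reason, with a difference of -1.23 (adjusted p = 0.0410). YPL264C was marked because its change at 10 min differed between gcn4 and gat1 by -2.99 (limma adjusted p = 0.0194), a comparison chosen after its values were seen.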

How the results depend on the processing

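Of 48 calls of single genes, 22 were lost in at least 1 omission of a replicate. On the deposited values without rescaling 43 of the 48 were lost and 1 turned, and with the double deletions alone 18 of 32 were lost and 4 turned. All 48 were kept with array quality weights, no filter and a replicate block, 47 with quantile normalization, 46 with median centring or a pseudocount of 64, 45 without the wild-type arrays and 40 with the scaled arrays alone, and 22 of 32 with the single deletions alone. For the deposited values without rescaling, the number of the 24 genes called was 0 for both classes at 20 min, 3 with and 0 without GCN4 at 60 min, 1 for the level before 3AT, 1 for the gat1 time course and 0 for every other comparison, with 0% to 2.94% of all genes called. With array quality weights it was 10 with GCN4 at 20 min, 2 for the difference at 20 min, 8, 10 and 6 at 120 min in gcn4, leu3 and gat1, 12 in gat1 at 10 min and 9 for gcn4 minus gat1, and 13, 17, 8, 18 and 12 for the time courses of gcn4, leu3, gat1gcn4, gcn4leu3 and gat1leu3. The shares of all genes moved too, in the same order to 5.72%, 3.85%, 23.1%, 3.83%, 5.56%, 11.9%, 16.1%, 43.6%, 22.6%, 25.2%, 45.3% and 14.7%.

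With the scaled arrays alone, chosen after the data were seen, it was 12 with GCN4 and 3 for the difference at 20 min, 1 for the difference at 60 min, 6, 7 and 4 at 120 min in gcn4, leu3 and gat1, 7 for gcn4 minus gat1 and 11 for the leu3 time course, with 11.5%, 5.01%, 2.16%, 15.9%, 3.31%, 3.28%, 7.75% and 14.6% of all genes. There YPL264C differed before 3AT by 0.034. With the double deletions alone it was 1 with and 2 without GCN4 at 20 min, and 4, 2 and 0 (difference) at 60 min, with 0.642%, 4.01%, 7.27%, 7.13% and 1.89% of all genes, and at 20 min with GCN4 the changes turned for YJR149W (-0.021), YLR460C (0.014), YNL134C (0.83) and YOR338W (-0.34). With the single deletions alone it was 3 without GCN4 and 1 for the difference at 60 min, and 2 for the level before 3AT, with 1.6%, 0.303% and 3.24% of all genes. In deposited values YBL029C-A differed before 3AT by -0.099.

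Median centring gave 3 for the level before 3AT and 0 and 4 for the time courses of gat1gcn4 and gcn4leu3, and quantile normalization 0 for gat1gcn4. A pseudocount of 64 gave 1 for the difference at 60 min and 2 for gcn4 minus gat1, and let the rule take 11 genes. Without the wild-type arrays there were 0 for the difference at 60 min, 1 in gat1 at 120 min, and 1 and 3 for the time courses of gcn4leu3 and gat1leu3. No filter moved no count by over 1.5 times. The causes were not tested.

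Over omissions of 1 replicate the counts ran from 3 to 7 with and 3 to 4 without GCN4 at 20 min, 0 to 1 for their difference, 9 to 10, 5 to 8 and 0 to 2 for the same at 60 min, and 2 to 5 for the level before 3AT. They ran from 2 to 4, 1 to 4 and 1 to 3 at 120 min in gcn4, leu3 and gat1, 0 to 6 in gat1 at 10 min and 0 to 3 for gcn4 minus gat1. For time courses they ran from 2 to 9 in gcn4, 3 to 11 in leu3, 6 to 13 in gat1, 0 to 4 in gat1gcn4, 0 to 3 in gcn4leu3 and 1 to 6 in gat1leu3. Without gcn4 replicate 3 at 90 min the gcn4 time course had 6. The rule took from 22 to 38 genes over omissions of 1 wild-type array, with 38 without replicate 3 at 30 min.

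The labels do not say that a replicate number marks a shared culture or day. In no strain was every same-numbered pair correlated above 0.1, and the main tests took the samples as unpaired. The share above 0.1 ran from 45 of 77 pairs in gat1 to 75 of 77 in gcn4. Most arrays were nonetheless closest to their own number, a likeness that the main tests leave out. The median correlation of same-numbered arrays was 0.122 to 0.303 over the strains, and that of arrays with other numbers was -0.209 to -0.055. The arrays closest to their own number were 22 of 24 in wild type, 23 of 23 in gcn4, 24 of 24 in leu3 and 22 of 23 in gat1. In the double deletions they were 16 of 16 in gat1gcn4, 17 of 18 in gcn4leu3 and 12 of 17 in gat1leu3. With a replicate block the counts were 1 for the difference at 20 min, 9 in leu3 at 120 min, 2 for gcn4 minus gat1, and 12, 3 and 6 for the time courses of leu3, gat1gcn4 and gcn4leu3, with 1.3%, 3.28%, 1.57%, 13.1%, 14% and 13.8% of all genes. The block moved no other count by over 1.5 times.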
